A study of Drosophila melanogaster with 62 samples.

Results

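CG5888 is a gene of chromosome arm 2L of Drosophila melanogaster that carries PRE1, one of the anchors of the PRE loop at dac, inside its longest intron. Its members here were the 1-kb bins of the 4C-seq tables of 2L from base 16400001 to base 16445000 (dm6), 45 of the 23514 bins of 2L and of the 137552 bins of a table, and the last part of the gene, where Idgf1 and Idgf2 overlap it, was left out. 4C-seq counts the fragments ligated to a chosen fragment, the viewpoint, so that the share of counts in a bin reflects how often it lay close to that viewpoint. The viewpoint called PRE2 was in the bin from 16487001 to 16488000, beside PRE2, the other anchor. The viewpoint called gypsy2 was in the bin from 16465001 to 16466000. In each case the viewpoint bin held the highest count of all 2L bins in each library.

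Polycomb response elements (PREs) are DNA elements of flies that recruit Polycomb group proteins, which keep developmental genes silent, and distant PREs can meet in chromatin loops. GAGA factor binds GA-rich motifs in many PREs, and dachshund (dac), the gene beside PRE2, encodes a transcriptional regulator of leg and eye development. The gypsy insulator is a DNA element bound by Su(Hw) that can block contacts between enhancers and promoters when it lies between them. CG5888 itself is annotated as an uncharacterized protein.

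The 24 libraries fell into 8 groups of 3, each counted from both viewpoints. They were embryos labelled wild type (WT), embryos labelled gypsy1 insert and gypsy2 insert, larval imaginal leg discs of WT and gypsy2 insert, and pupal imaginal leg discs of WT and gypsy2 insert, from flies grown at 20 °C. A further embryo group, replicates 4 to 6, is titled WT while its genotype field gives an insertion of gypsy; it is called titled-WT here and served only as a second control. The labels give neither the site of each insertion, the fly strain nor the number of animals, the gypsy2 column names hold the letters enh without an explanation, and contact counts hold no marker with which the tissue could be checked.

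Library totals ran from 800269 to 25904672 counts. Embryo WT and gypsy1 libraries were the shallow ones and embryo gypsy2 and titled-WT libraries the deep ones, so that depth and genotype cannot be told apart when embryo gypsy2 is set against embryo WT; titled-WT matched gypsy2 in depth. The 45 bins held at least 37555 counts in every library and PRE1 at least 7870, a counting error of at most 1.13%, so the spread between libraries and their number limit the precision. Values below are percentages of the counts on 2L more than 5 kb from the viewpoint bin, called the share. No source says that replicates were separate cultures, so p-values measure the spread between these libraries.

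CG5888 (FBgn0028523) lies on the minus strand from 16400175 to 16448469. Of its 2 annotated transcripts, FBtr0080880 spans the whole gene. It has an intron of 42358 bases between its first exon, from 16448314 to 16448469, and the exon from 16404939 to 16405955. Exons touch only 3 of the bins, those from 16400001, 16404001 and 16405001, and the other 42 bins are intronic. PRE1 was taken as 6 adjacent bins, the first from 16420001 and the last from 16425001, and both PRE1 and the bin from 16429001, described below as the high bin, lie in the long intron. PRE1 lies 62 to 67 kb from the PRE2 viewpoint bin and 40 to 45 kb from the gypsy2 viewpoint bin.

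The stretch of PRE1 with most copies of the motif GAGAG, the core that GAGA factor binds, lay in the bin from 16422001, the only PRE1 bin called lower from PRE2 in gypsy2 at all 3 stages. The last GATC of that bin, at 16422530, lies before the stretch, and a link between the call and the stretch was not tested. In 200 bases from 16422656 to 16422855 the stretch held 9 copies on either strand, overlapping copies included. Of 117568 stretches of 200 bases tiled over 2L, 0.107% held as many. The printed stretch was picked for its copies and the tiled ones were not, so this percentage can make it look rarer than it is. The sequence is given on the plus strand of dm6 with the copies in capitals.
PRE1 GAGAG stretch: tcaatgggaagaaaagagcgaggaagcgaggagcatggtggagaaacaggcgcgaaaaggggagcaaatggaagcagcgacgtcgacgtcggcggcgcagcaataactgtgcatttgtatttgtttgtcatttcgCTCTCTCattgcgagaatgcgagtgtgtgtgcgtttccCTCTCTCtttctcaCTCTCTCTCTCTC

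The 6 PRE1 bins held 22 copies of GAGAG, 10 of them in the bin from 16422001 and 6 in the next bin, and 2.51% of all stretches of 6 kb on 2L held as many. All 45 bins together held 68 copies, 1.51 per kb against 1.5 per kb over 2L, and 68.4% of all 2L bins held at least 1. Among the 40 stretches of 6 adjacent bins in the gene, PRE1 ranked the third by GAGAG copies, and the richest stretch, from 16422001 and thus overlapping PRE1, had 25. GCCAT, the core of the Pho motif, was no denser in PRE1 (1.83 per kb) than over 2L (2.39 per kb), with at least 1 copy in 87.8% of 2L bins, and CACACACA occurred once in PRE1 and in 16.8% of 2L bins.

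The counts along the gene were tied to the presence of GATC. GATC and CATG were searched because enzymes that cut at them are common in 4C-seq. The sources used here do not name the enzymes. Of the 35 gene bins with a GATC in dm6, 1 held under 5% of the median bin count summed over the 9 WT libraries from PRE2, and of the 10 bins without one, 7 did. Over the bins of 2L within 500 kb of PRE2 the same was true of 4.47% of 806 bins with a GATC and of 53.3% of 184 bins without. GATC was present in 84.9% of all 2L bins, and CATG, present in 94.3%, was found in 44 of the 45 gene bins. The PRE1 bin from 16423001 is one of the bins without GATC.

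The GATC sites around the GAGAG stretch are shown because they bound a stretch inside PRE1 that has no GATC and takes in the whole bin from 16423001, which held next to no counts, and parts of the bins on both sides. The last GATC of the bin from 16422001 is at 16422530 and the only GATC of the bin from 16424001 is at 16424660, 2130 bases further on, with 17 copies of GAGAG between them. The sequences are 44 bases of the plus strand with the site in capitals.
Last GATC before the stretch (16422510 to 16422553): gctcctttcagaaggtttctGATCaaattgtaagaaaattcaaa
First GATC after the stretch (16424640 to 16424683): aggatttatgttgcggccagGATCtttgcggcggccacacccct
The high bin, which has no copy of GAGAG or GCCAT, holds 2 GATC sites.
High bin, first site (16429052 to 16429095): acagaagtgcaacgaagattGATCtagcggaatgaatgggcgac
High bin, second site (16429827 to 16429870): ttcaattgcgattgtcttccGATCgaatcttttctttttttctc

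Before the comparisons, 4 gene bins have to be set apart, because they held counts in some libraries and hardly any in others. From PRE2, the bin from 16426001, directly beside PRE1, held 449, 462 and 678 counts in embryo WT, 2368, 3892 and 4285 in titled-WT and 4239, 1865 and 3459 in larval WT. In pupal WT it held 2, 2448 and 2 counts, so that replicate 2 was far from replicates 1 and 3. The 3 larval gypsy2 libraries held 0, the pupal ones 0, 1 and 1, the embryo ones 9, 13 and 1, and the gypsy1 libraries 0, 7 and 7. The bin from 16443001 behaved in the same way, with 132, 227 and 111 counts in embryo WT, 0, 1094 and 0 in pupal WT and 0 in all 6 larval and pupal gypsy2 libraries. Against a floor of 3 counts per library, larval WT was at least 950-fold higher than larval gypsy2 in the first of these bins and at least 404-fold higher in the second. The bin from 16401001 was lower and less sharply divided, with 36, 541 and 104 counts in pupal WT.

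The bin from 16432001, which has no GATC in dm6, divided the libraries differently. It held 7, 1963 and 5 counts in pupal WT and 0, 4 and 5 in gypsy1, but 5810, 9319 and 5371 in pupal gypsy2 and 4263, 3186 and 3014 in embryo gypsy2. With gypsy2 as the viewpoint the same libraries were high and low: 9, 8280 and 15 counts in pupal WT and 13808, 17969 and 18566 in pupal gypsy2 in that bin, and 10, 5971 and 0 in pupal WT in the bin from 16426001. The titled-WT libraries, whose genotype field gives an insertion, had counts in all 4 bins, as embryo WT had. The pupal WT replicates 1 and 3 were near 0 in 3 of the 4 bins, and the gypsy1 libraries from PRE2 had at most 7 counts in any of the 4. Among the bins within 500 kb of PRE2 with at least 500 counts in pupal WT replicate 2, 6 of 496 (1.21%) held under 1% of its share in both other pupal WT libraries, and 3 of these 6 lay in CG5888. What sets these libraries apart was not tested. Pupal results are therefore also given without single libraries, and some share results also without these 4 bins, a choice made after seeing the data. Counts of called gene bins include the 4 bins.

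**Figure D1:**
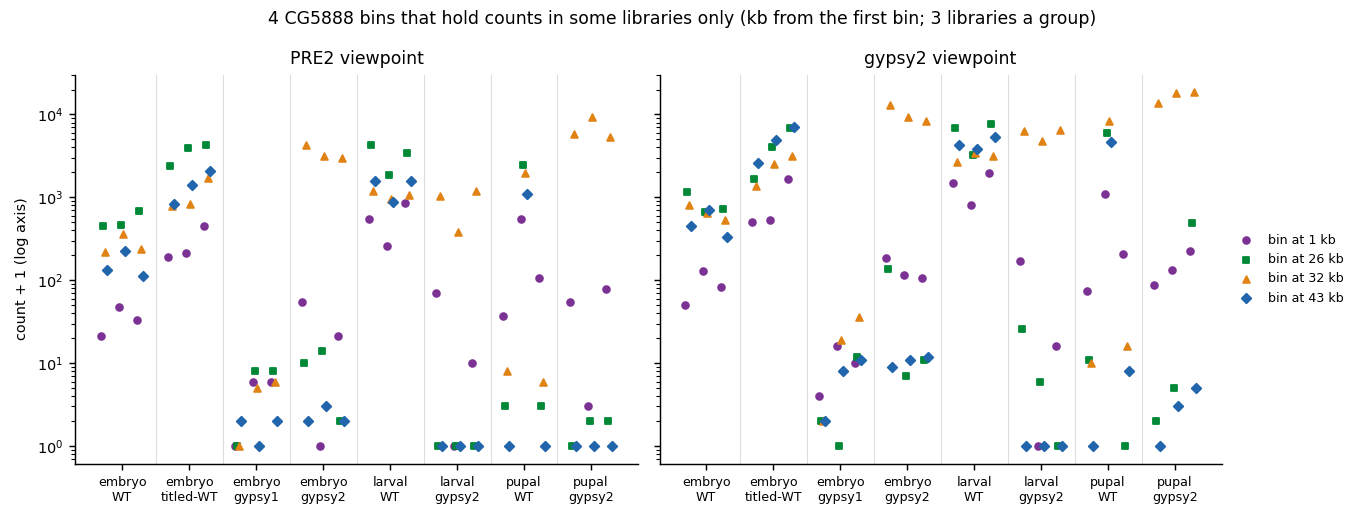
Counts plus 1, on a log axis, of the gene bins from 16401001, 16426001, 16432001 and 16443001 (1, 26, 32 and 43 kb from the first bin) in each of the 3 libraries of each of the 8 groups, by viewpoint. In pupal WT only the middle library, replicate 2, has counts above 1000 in the bins at 26, 32 and 43 kb from PRE2, and all gypsy2 libraries have counts in the bin at 32 kb.

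The GATC sites that dm6 has in the bins from 16426001 and 16443001 are shown because these bins separate the libraries most sharply.
Bin at 16426001 (16426691 to 16426734): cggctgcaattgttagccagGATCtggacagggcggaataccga
Bin at 16443001, first site (16443614 to 16443657): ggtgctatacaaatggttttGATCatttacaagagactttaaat
Bin at 16443001, second site (16443761 to 16443804): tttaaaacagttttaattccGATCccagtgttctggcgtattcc

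From PRE2, CG5888 stood out against the other side of the viewpoint in WT. Within the gene, the high bin and the PRE1 bins from 16422001, 16424001 and 16425001 had the highest mean shares. In WT the gene took a share of 12.7 to 13.1% in embryos, 12.5 to 16.5% in larval discs and 13.3 to 13.6% in pupal discs. The 45 bins equally far from PRE2 in the opposite direction, from 16530001 to 16575000 and called the mirror bins, held far less: the gene held 6.52 ± 0.45 times their counts in embryos, 6.4 ± 0.97 times in larval discs and 6.74 ± 0.41 times in pupal discs (SD, n = 3 each). By stage in WT, the shares of embryo and larval and of larval and pupal libraries overlapped, while those of pupal discs lay above those of embryos by 0.06 ± 0.02 on the log2 scale (SE, exact permutation p = 0.1, the smallest that 3 against 3 libraries allow). This order turned with the denominator, and with all 2L counts the pupal value was -0.20 relative to embryos (exact p = 0.1).

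Per bin, the mean WT share over the 3 stages had a median of 0.265% from PRE2, with 9 bins above 0.5% and 8 bins below 0.02%. The high bin from 16429001 led with 1.02% (0.902 to 1.13% over the 9 WT libraries). The PRE1 bins from 16422001, 16425001 and 16424001 followed with 0.927%, 0.858% and 0.817%, and the bin from 16418001, outside PRE1, came next with 0.619%. The other PRE1 bins were lower: 0.522% at 16421001, 0.0375% at 16420001 and 0.000712% at 16423001. The lowest bins of the gene, at 16433001, 16415001 and 16423001, have no GATC in dm6.

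As a description, PRE1 was ranked among the 40 stretches of 6 adjacent bins in the gene by mean count. From PRE2 it ranked between the first and the fourth in each of the 24 libraries, and its mean was 0.925 to 1.0 times that of the highest stretch as group means. With each bin taken relative to the mean count at its distance, the rank from PRE2 ran from 1 to 7, with 6 to 7 in larval WT, and the first-ranked stretch began at 16417001 in 10 libraries and at 16402001 in 8. Counted from gypsy2 it ranked 18 to 23 in embryo WT, 5 to 14 in larval WT and 3 to 6 in pupal WT. In the larval gypsy2 libraries it ranked 2 in all 3, in the embryo gypsy2 libraries 7 to 12 and in the pupal gypsy2 libraries 4 to 10. Relative to the mean count at the same distance on both sides of the viewpoint, PRE1 in WT was higher by 1.46 ± 0.03, 1.44 ± 0.04 and 1.60 ± 0.01 from PRE2 in embryo, larval and pupal libraries, against 0.95 ± 0.05, 1.10 ± 0.12 and 1.15 ± 0.05 with gypsy2 as the viewpoint (log2, SD, n = 3).

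**Figure D2:**
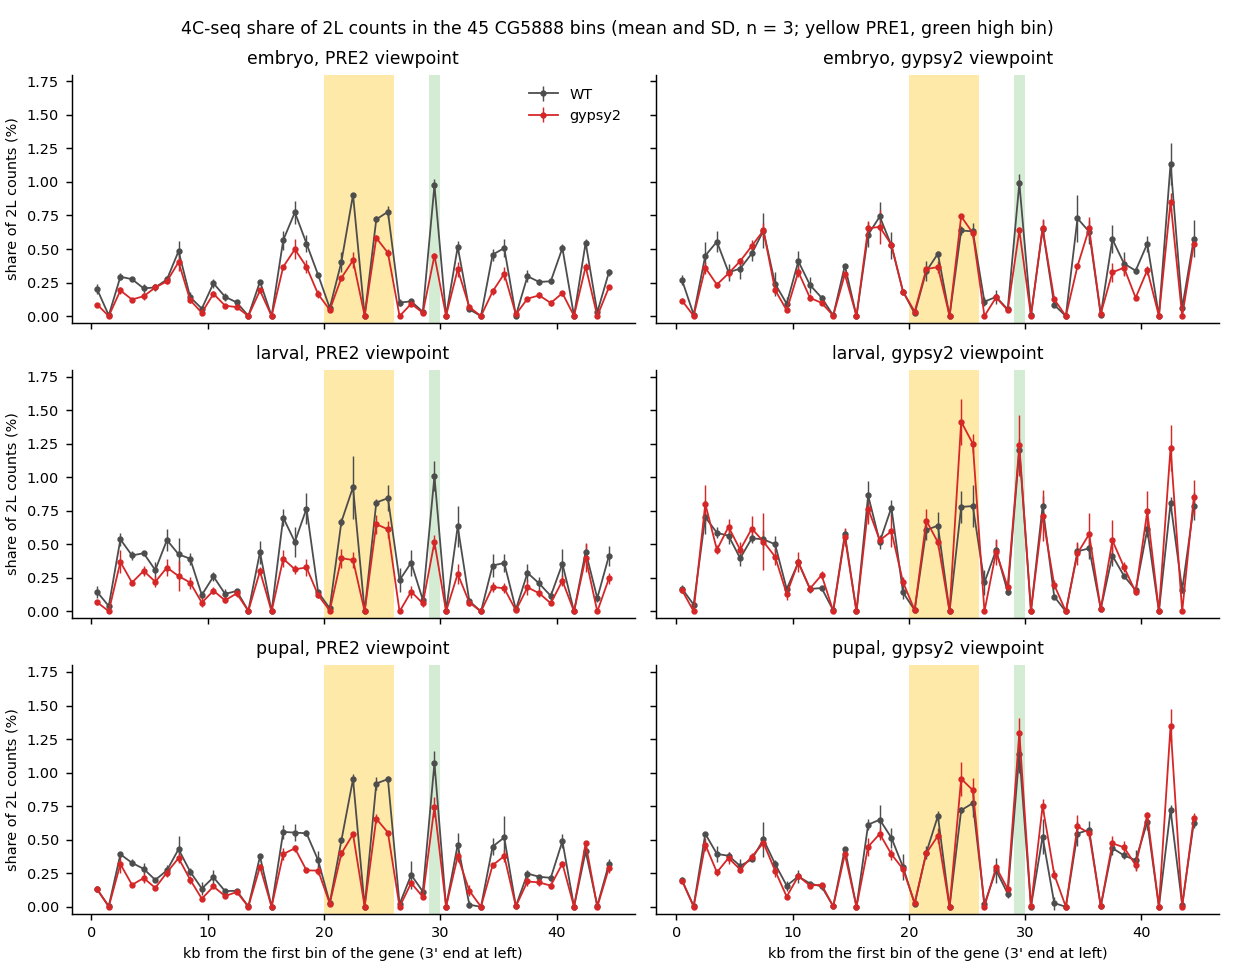
Share of 2L counts in each of the 45 CG5888 bins (percent, mean and SD of 3 libraries) against distance from the first bin in kb, with the 3′ end of the gene at the left, for WT and gypsy2 by stage and viewpoint. From PRE2 the gypsy2 line runs below WT over most of the gene, and from the gypsy2 viewpoint the gypsy2 mean is above that of WT at the last PRE1 bins of larval discs and at the bin at 42 kb of both discs, and below it at the high bin of embryos.

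Both viewpoints saw the same bins of the gene but gave PRE1 a different weight. Over the 45 bins, the log2 counts of the viewpoints correlated within each of the 24 libraries with Pearson's r from 0.932 to 0.991, a description across bins that share a library and their GATC sites. Of the 33 bins with a WT mean above 0.1% from PRE2, only 7 had a higher share from PRE2 than from the gypsy2 viewpoint. In embryo, larval and pupal WT, PRE1 made up 22.2 ± 1.1%, 22.2 ± 1.2% and 24.9 ± 0.6% of the gene's counts from PRE2 (SD, n = 3). Its part of the counts taken from gypsy2 was 13.3 ± 0.6%, 15.9 ± 1.1% and 17.1 ± 0.6% (SD, n = 3). Within libraries the PRE1 part was higher from PRE2 in 9 of 9 WT libraries, by 0.59 on the log2 scale (SD 0.12, range 0.46 to 0.76), with an exact two-sided sign-flip p of 0.0039, the smallest possible with 9 libraries. The near part of the gene, the 18 bins between PRE1 and the last bin without the high bin, went the other way, and its part was lower from PRE2 by 0.30 in 9 of 9 libraries (p = 0.0039, exact sign-flip). For the high bin the difference was smaller, 0.12 higher from PRE2, in 7 of 9 libraries (exact p = 0.0195).

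From PRE2, the counts of CG5888 were lower in gypsy2 insert libraries at every stage. In embryos the gene share was 13.1, 12.7 and 13% in WT and 7.45, 8.02 and 8.26% in gypsy2. In larval discs it was 15.4, 12.5 and 16.5% in WT and 9.12, 8.22 and 8.53% in gypsy2. In pupal discs it was 13.3, 13.6 and 13.3% in WT and 9.90, 9.95 and 9.66% in gypsy2. No gypsy2 library reached the lowest WT library of its stage. The difference of gypsy2 from WT was -0.71 ± 0.05 in embryos, -0.77 ± 0.13 in larval discs and -0.45 ± 0.02 in pupal discs on the log2 scale (SE, n = 3 against 3, exact permutation p = 0.1 each). With all 2L counts as the denominator the embryo difference was -1.87. Over the 3 stages the share fell by 0.64, a fold of 0.640, with an exact permutation p within stages of 0.00025, the smallest of 8000 relabelings (adjusted p = 0.000833 over 20 such tests). The pupal difference lay between -0.46 and -0.44 without any 1 of its libraries, pupal WT replicate 2 included. Without the 4 bins set apart above the difference over stages was -0.63 (exact p = 0.00025).

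The embryo control mattered for the size but not for the direction of this difference. The titled-WT embryos had shares of 10.8, 11.1 and 11.3%, below embryo WT and above gypsy2, and gypsy2 differed from them by -0.48 ± 0.05 (log2, SE, exact p = 0.1). The gypsy1 embryos had 8.88, 9 and 9.11%, and differed from embryo WT by -0.52 ± 0.02 (exact p = 0.1). Against the mirror bins the gene's count ratio from PRE2 was 4.18 ± 0.26 in embryo gypsy2, 3.30 ± 0.31 in larval gypsy2 and 3.84 ± 0.20 in pupal gypsy2 (SD, n = 3), and the mean fall over stages was 0.80 on the log2 scale (exact p = 0.00025). In gypsy1 embryos the ratio was 4.08 ± 0.32. From PRE2 the share of the mirror bins itself rose in gypsy2 by 0.16 over stages (exact p = 0.01725). It differed by -0.07 in embryos, 0.18 in larval discs and 0.36 in pupal discs.

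**Figure D3:**
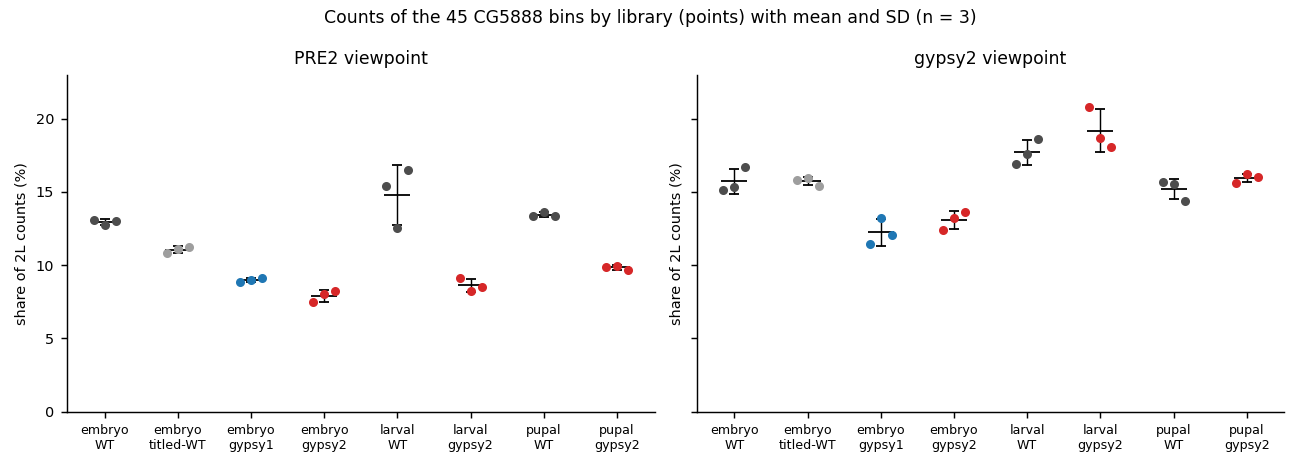
Share of 2L counts (percent) taken by the 45 CG5888 bins in each library (points), with the mean and SD of the 3 libraries of each group, by viewpoint. From PRE2 all gypsy2 libraries lie below 10% and all WT libraries above 12%; from the gypsy2 viewpoint only the embryo gypsy2 and gypsy1 groups lie below WT.

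The fall from PRE2 was spread over the gene, PRE1 included. Over stages, the share of PRE1 fell by 0.65, that of the high bin by 0.87, that of the 20 bins of the far part beyond PRE1 by 0.58 and that of the near part by 0.68 on the log2 scale (exact p = 0.00025 each, the smallest possible). PRE1 itself went from 2.77, 2.97 and 2.86% in embryo WT to 1.75, 1.75 and 1.90% in embryo gypsy2, from 3.30, 2.97 and 3.56% to 2.03, 2.16 and 1.96% in larval discs, and from 3.31, 3.32 and 3.41% to 2.14, 2.19 and 2.19% in pupal discs, without overlap at any stage. As a part of the gene's counts PRE1 differed by -0.01 on average over stages (exact p = 0.817), but by 0.20 (exact p = 0.0005) when bins were capped at the 99th percentile, so neither a direction nor a lack of change can be read from it. The group values were 22.8 ± 0.9% against 22.2 ± 1.1% in embryos and 23.8 ± 2.2% against 22.2 ± 1.2% in larval discs. In pupal discs the PRE1 part was 21.6, 22.0 and 22.7% in gypsy2 against 24.9, 24.3 and 25.5% in WT, a difference of -0.17 ± 0.03 (log2, SE, exact p = 0.1).

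The high bin showed how far such a part depends on the control. As a part of the gene's counts it fell by 0.22 over stages (exact p = 0.004, adjusted p = 0.01 over 20 tests). In embryos it went from 7.53% of the gene's counts in WT to 5.71% in gypsy2, but titled-WT embryos had 5.90%. Against titled-WT the embryo difference was -0.05 ± 0.08 (log2, SE, exact p = 0.7). In larval discs gypsy2 differed from WT by -0.19 ± 0.06 (exact p = 0.1) without overlap, and in pupal discs by -0.07 ± 0.11 (exact p = 0.7).

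Bin by bin, gene bins were called lower from PRE2 more often than the bins around them. The test was edgeR's quasi-likelihood fit over all bins within 500 kb, with a bin called at a Benjamini-Hochberg adjusted p under 0.05. In embryos 28 of 44 gene bins tested fell and 1 rose, against 10.9% and 11.5% of all 887 bins tested. In larval discs 13 of 41 fell and 0 rose, against 4.47% and 0.706% of 850 bins, and 33 of the 41 had an unadjusted p under 0.05. In pupal discs 8 of 44 fell and 0 rose, against 3.38% and 3.04% of 887. The bins from 16401001, 16426001 and 16443001, set apart above, were among the embryo and larval falls and not among the pupal ones. Against titled-WT, 16 of 44 fell and 1 rose in embryo gypsy2, against 6.56% and 4.70% of 915. In gypsy1, 22 of 41 fell and 0 rose, against 8.04% and 4.02% of 796, and with same-numbered columns as blocks 35 fell and 0 rose, against 12.3% and 8.79% of the same 796. The median log2 fold change of the gene bins was -0.57, -0.75 and -0.40 in the embryo, larval and pupal fits, beside 0.07, 0.09 and -0.01 for all bins. Of the 41 gene bins tested at all 3 stages, 5 were called lower at each, namely those from 16403001, 16416001 and 16418001, the PRE1 bin from 16422001 and the high bin from 16429001. Over all 842 bins within 500 kb tested at the 3 stages the share was 1.66%. Without larval gypsy2 replicate 3 the larval calls of the PRE1 bin and the high bin were lost (edgeR adjusted p of 0.0549 and 0.0528), and the pupal call of the high bin was lost without any 1 library but WT replicate 3 (up to 0.112). The embryo call of the bin from 16418001 was lost without embryo WT replicate 3 (edgeR adjusted p = 0.0777). The bins from 16403001 and 16416001 were not followed singly in the fits that left out 1 library.

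The larval and pupal counts rested on few libraries. Leaving out 1 library at a time gave 4 to 22 called gene bins in larval discs. There were 22 without WT replicate 2, 7 without WT replicate 1, 6 without WT replicate 3 and 4 without gypsy2 replicate 3. The calls over all bins moved too. Without WT replicate 2, 60 fell and 21 rose of 847, and without gypsy2 replicate 3, 12 fell and 2 rose of 852. In pupal discs leaving out 1 library gave 4 to 8. There were 4 without WT replicate 1, 4 without gypsy2 replicate 1, 5 without gypsy2 replicate 2 and 4 without gypsy2 replicate 3. Over all bins, 18 fell and 21 rose of 888 without pupal WT replicate 1. DESeq2 called 25 gene bins in larval discs, with 71 falls and 17 rises over all 850 bins.

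Among the PRE1 bins, the one from 16422001, with the GAGAG stretch, was called lower from PRE2 in each of the 5 comparisons, and lost a call only without larval gypsy2 replicate 3 among the fits that left out 1 library. From PRE2 its share was 0.893, 0.897 and 0.922% in embryo WT and 0.388, 0.375 and 0.483% in embryo gypsy2, 1.08, 0.656 and 1.04% in larval WT and 0.419, 0.314 and 0.415% in larval gypsy2, and 0.915, 0.991 and 0.948% in pupal WT and 0.529, 0.533 and 0.562% in pupal gypsy2. The groups did not overlap at any stage, although larval WT replicate 2 lay well below the other larval WT libraries. The edgeR log2 fold changes were -1.08 ± 0.13, -1.27 ± 0.21 and -0.76 ± 0.07 (SE), with adjusted p of 0.000104, 0.00806 and 0.00085. Against titled-WT embryos the edgeR value was -0.97 ± 0.10 (adjusted p = 0.000132), and for gypsy1 it was -0.62 ± 0.13 (adjusted p = 0.00196). The bin from 16424001, on the other side of the stretch without GATC, had log2 fold changes of -0.27 ± 0.10, -0.32 ± 0.14 and -0.44 ± 0.07 in edgeR, of which only the pupal value passed the threshold (adjusted p = 0.0154), a call lost without pupal WT replicate 1 or 3 or gypsy2 replicate 1 or 3 (up to 0.0682). The bin from 16425001 fell in embryos (-0.68 ± 0.11, edgeR adjusted p = 0.00111) and pupal discs (-0.73 ± 0.06, edgeR adjusted p = 0.00085), and had -0.46 ± 0.15 in larval discs (edgeR adjusted p = 0.127).

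Within PRE1, the balance between the bins from 16422001 and 16424001 was lower in every gypsy2 library than in the WT libraries of its stage, from both viewpoints. From PRE2 the ratio of the first bin to the second was 1.21, 1.22 and 1.33 in embryo WT, 1.36, 0.828 and 1.23 in larval WT and 0.974, 1.15 and 0.993 in pupal WT. In gypsy2 it was 0.692, 0.634 and 0.812 in embryos, 0.600, 0.460 and 0.731 in larval discs and 0.854, 0.787 and 0.835 in pupal discs, below each WT library of the same stage. Counted from gypsy2 it was 0.730 ± 0.041, 0.846 ± 0.244 and 0.940 ± 0.026 in embryo, larval and pupal WT and 0.492 ± 0.058, 0.366 ± 0.031 and 0.562 ± 0.107 in gypsy2 (SD, n = 3). This ratio was chosen after its values were seen and was not tested. When PRE1 was taken as its middle bins alone, those from 16422001 and 16423001, its part of the gene's counts was lower in gypsy2 over stages. It was lower by 0.42 from PRE2 (exact p = 0.00025) and by 0.31 from the gypsy2 viewpoint (exact p = 0.001), opposite in sign to the 6-bin value from that viewpoint. The bin from 16423001 held next to no counts, so this is nearly the part of the bin from 16422001 alone. It therefore repeats values that entered the ratio. In gypsy1 embryos the ratio from PRE2 was 1.06 ± 0.01 and in titled-WT embryos 1.30 ± 0.25. Pupal WT replicates 1 and 3, which lacked counts in the bins set apart above, had 0.974 and 0.993 and replicate 2 had 1.15. What part those library differences have in the ratio was not tested.

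**Figure D4:**
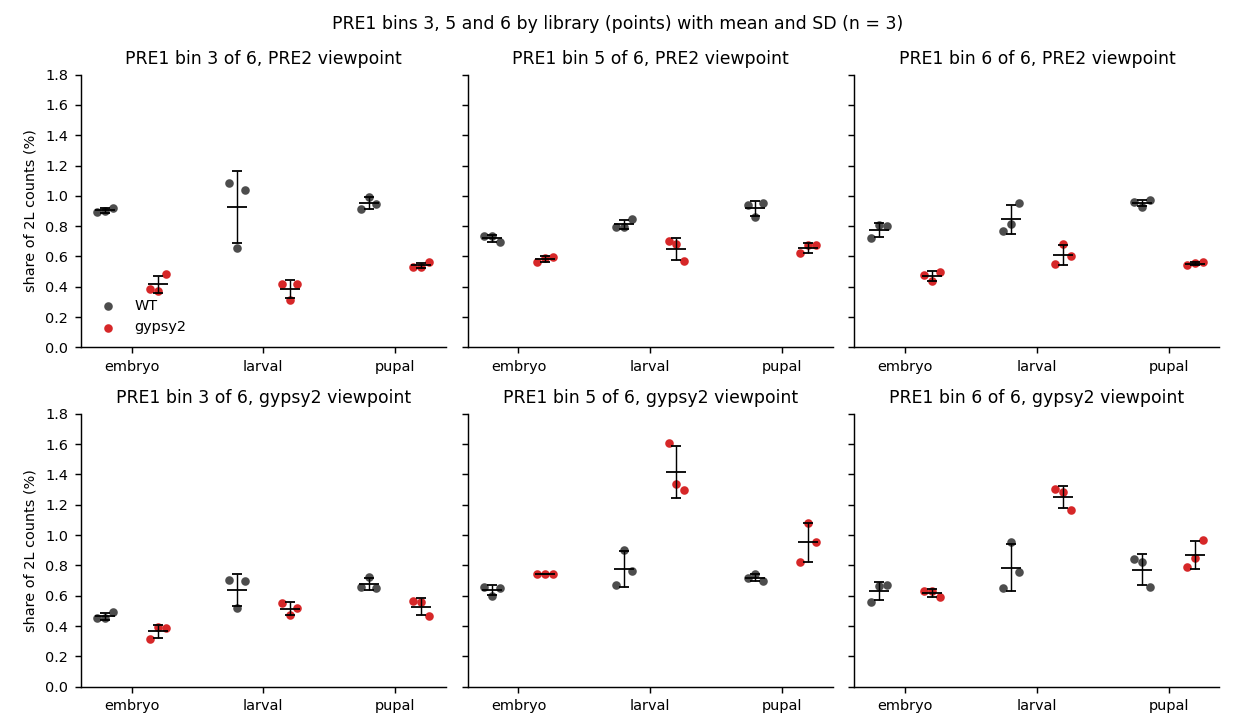
Share of 2L counts (percent) in the PRE1 bins from 16422001, 16424001 and 16425001 (bins 3, 5 and 6 of the 6) in each library (points), with mean and SD (n = 3), for WT and gypsy2 by stage and viewpoint. From PRE2 the bin at 16422001 falls to between 0.314 and 0.562% in gypsy2, and from the gypsy2 viewpoint the bins at 16424001 and 16425001 of larval gypsy2 lie above all larval WT libraries.

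Outside pupal discs, the single bins with the largest falls were among those set apart above. In edgeR the bin from 16443001 had the largest fall of the gene in embryo gypsy2 against WT and against titled-WT and in gypsy1 from PRE2, and the bin from 16426001 in larval discs, with counts at or near 0 in the insert libraries, so that no fold is given. In pupal discs, where WT libraries disagree on those bins, the largest fall was that of the bin from 16418001, beside PRE1, with 17551, 15794 and 13564 counts in gypsy2 and 21121, 23019 and 35580 in WT and a log2 fold change of -0.96 ± 0.09 (SE, edgeR adjusted p = 0.00085). The only rises from PRE2 were those of the bin from 16436001, which has no GATC in dm6, in embryo gypsy2 against WT (1.57 ± 0.34, edgeR adjusted p = 0.00559, a call lost with all 2L bins in the fit), and of the bin from 16432001 against titled-WT (1.61 ± 0.19, edgeR adjusted p = 0.000361). The bin from 16436001 had low mean shares of 0.0046% in embryo WT, 0.0130% in titled-WT and 0.0133% in embryo gypsy2, so its rise was seen only against the shallow WT libraries. That from 16432001 is one of the bins set apart above.

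Seen from the gypsy2 viewpoint, the share of the gene in gypsy2 lay apart from WT in embryos and overlapped it in both discs. In embryos its share was 15.1, 15.4 and 16.7% in WT, 15.8, 15.9 and 15.4% in titled-WT, 12.4, 13.2 and 13.6% in gypsy2 and 11.4, 13.2 and 12% in gypsy1. Both insert groups lay below both controls, and the differences from WT were -0.27 ± 0.06 for gypsy2 and -0.36 ± 0.08 for gypsy1 (log2, SE, exact p = 0.1 each). In larval discs it was 16.9, 17.6 and 18.6% in WT and 20.8, 18.7 and 18% in gypsy2, and in pupal discs 15.6, 15.6 and 14.4% in WT and 15.6, 16.2 and 16% in gypsy2. These groups overlapped, with differences of 0.11 ± 0.07 and 0.07 ± 0.04 (log2, SE, exact p = 0.2 each). The test of the difference between stages did not pass after adjustment (0.38 for larval discs minus embryos, exact relabelling p = 0.01, adjusted p = 0.075 over 60 tests). Over the 3 stages the mean difference was -0.03 (exact p = 0.64; -0.02 without the 4 bins set apart). With all 2L counts as the denominator it was -0.47 (exact p = 0.0473), with -1.37 in embryos, -0.064 in larval discs and 0.0098 in pupal discs, so its size and call depended on that choice. By the share as defined above, the difference between the effects of the viewpoints was -0.62 (exact permutation p = 0.00025 within stages).

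Against its mirror bins, from 16486001 to 16531000, a stretch that holds PRE2, Nepl8 and Tpr2, the gene was higher in gypsy2 than in WT in both discs, without overlap. The ratio was 4.23 ± 0.17 in larval WT and 5.06 ± 0.28 in larval gypsy2, 3.63 ± 0.21 in pupal WT and 4.31 ± 0.11 in pupal gypsy2, and 4.45 ± 0.40 and 4.49 ± 0.41 in embryo WT and gypsy2 (SD, n = 3). The mean rise over stages was 0.17 on the log2 scale (exact p = 0.00725). With titled-WT embryos, whose ratio was 5.40 ± 0.32, in place of embryo WT it was 0.08 (exact p = 0.308). With embryo WT, the share of the mirror bins itself fell by 0.20 over stages (exact p = 0.00025). That of the gene differed by -0.03 (exact p = 0.64). In gypsy1 embryos the ratio was 2.85 ± 0.37.

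PRE1 took a larger part of the gene's counts in gypsy2 from this viewpoint, in embryos and larval discs. It was 12.9, 14 and 13% in embryo WT, 13.8, 14.6 and 15% in titled-WT and 16.6, 16.4 and 15.5% in embryo gypsy2. In larval discs it was 15.1, 17.2 and 15.6% in WT and 20.0, 20.7 and 19.9% in gypsy2, and in pupal discs 16.5, 17.7 and 17.2% in WT and 16.6, 18.3 and 17.4% in gypsy2. The embryo and larval groups did not overlap and differed by 0.28 ± 0.05 and 0.34 ± 0.06, and the pupal ones overlapped with 0.03 ± 0.05 (log2, SE, exact p = 0.1, 0.1 and 0.6). Over stages the rise was 0.22 (exact p = 0.0015, adjusted p = 0.00429 over 20 tests), and 0.21 without the 4 bins set apart (exact p = 0.00125). The share of PRE1 on 2L rose by 0.19 over stages (exact p = 0.0108), most in larval discs. There it went from 2.55, 3.02 and 2.90% in WT to 4.15, 3.86 and 3.59% in gypsy2. In embryos and pupal discs the groups overlapped, with differences of 0.02 ± 0.05 and 0.10 ± 0.07 (log2, SE, exact p = 0.8 and 0.2). Against titled-WT embryos the PRE1 share differed by -0.10 ± 0.04, without overlap (exact p = 0.1). The share of the far part fell by 0.15 over stages (exact p = 0.007).

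**Figure D5:**
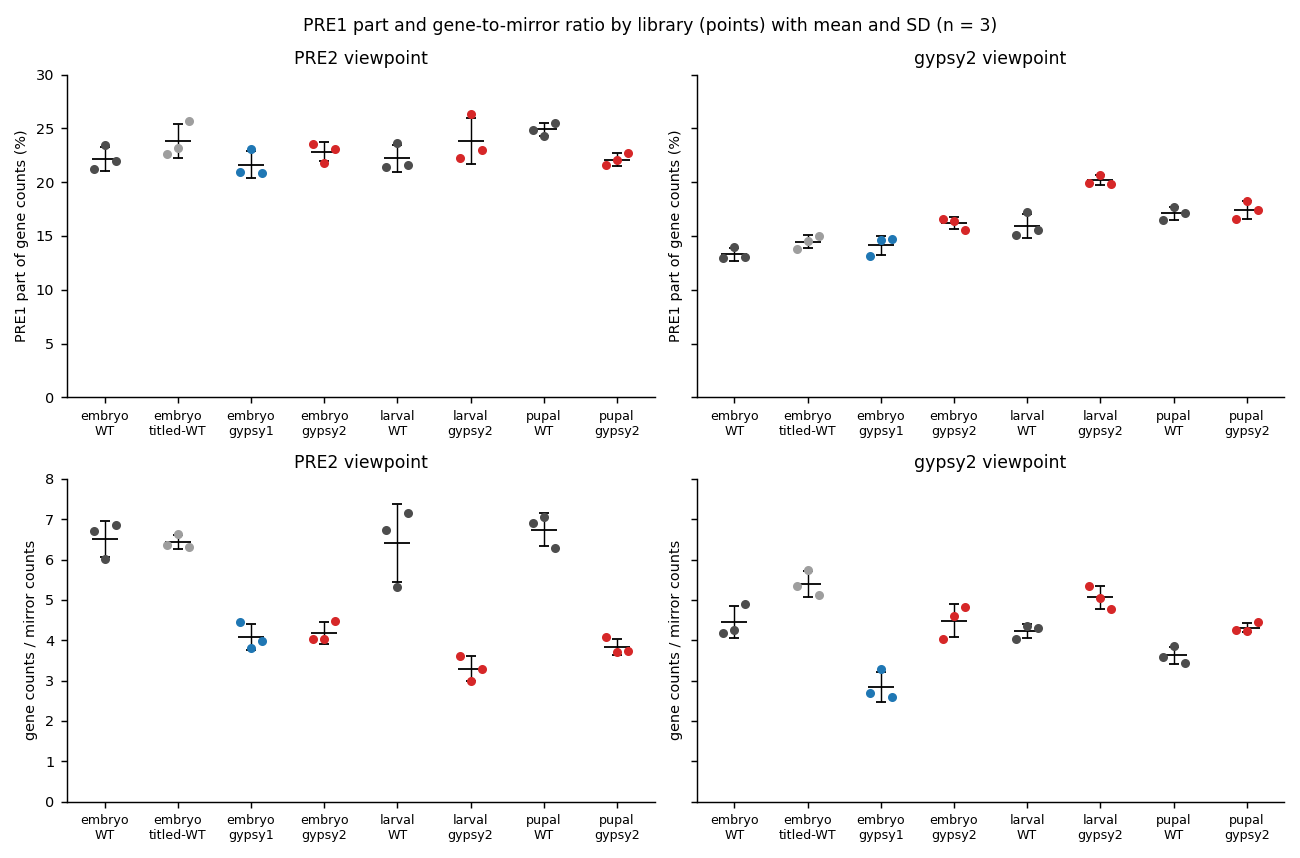
PRE1 as a percentage of the counts of the 45 CG5888 bins (top) and counts of the gene over those of the mirror bins (bottom) in each library (points), with mean and SD (n = 3), from both viewpoints. From PRE2 the ratio to the mirror bins drops below 5 in all gypsy2 and gypsy1 libraries, and from the gypsy2 viewpoint the PRE1 part is higher in embryo and larval gypsy2 than in WT.

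Fewer gene bins passed the bin test from the gypsy2 viewpoint. With edgeR, 12 of 45 fell and 3 rose in embryo gypsy2 against WT (9.80% and 12.0% of 888 bins), 2 of 43 fell and 1 rose in larval discs (1.61% and 0.575% of 869), 1 of 44 fell and 1 rose in pupal discs (2.25% and 3.04% of 888), 14 of 45 fell and 1 rose against titled-WT (7.98% and 7.54% of 915), and 4 of 42 fell and 0 rose in gypsy1 (0.730% and 0.730% of 822, with 10 gene bins at an unadjusted p under 0.05). In gypsy1 the called falls included those of the bins from 16426001 and 16432001, set apart above. The embryo falls against WT included the set-apart bins from 16401001, 16426001 and 16443001. In larval discs both called falls were those of set-apart bins, from 16426001 and 16443001. The larval bin that rose was the PRE1 bin from 16424001. Its share was 0.669, 0.903 and 0.765% in WT and 1.61, 1.34 and 1.30% in gypsy2, and its log2 fold change was 0.91 ± 0.17 (SE, edgeR adjusted p = 0.0259). This call was kept without larval WT replicate 2 and lost without any other 1 library (edgeR adjusted p of up to 0.164), with the replicate block (0.107) and with all 2L bins in the fit (0.875). The neighbouring bin from 16425001 had 0.71 ± 0.18 (edgeR adjusted p = 0.0862), with 0.648, 0.952 and 0.756% in WT and 1.30, 1.28 and 1.17% in gypsy2. In pupal discs the bin from 16442001, near the viewpoint end of the gene, rose by 0.93 ± 0.09 (edgeR adjusted p = 0.00163), and the bin from 16409001 had -1.02 ± 0.21 (edgeR adjusted p = 0.0252). The call of the rise held without any 1 library (edgeR adjusted p of up to 0.011). That of the fall was kept without pupal WT replicate 2 and lost without any other 1 library (up to 0.103), with the replicate block (0.12) and with all 2L bins (0.376). In embryos the largest rise was that of the bin from 16436001 against WT (1.07 ± 0.29, edgeR adjusted p = 0.0125), with 1772, 1382 and 1110 counts in gypsy2 and 70, 102 and 45 in the shallower WT libraries, a call lost without embryo WT replicate 1 or 3 (up to 0.0728) and with all 2L bins, and that of the bin from 16432001 against titled-WT (1.90 ± 0.17, edgeR adjusted p = 4.76e-06). From this viewpoint the bin from 16436001 had mean shares of 0.0088% in embryo WT, 0.0205% in titled-WT and 0.0173% in embryo gypsy2. That from 16432001 has no GATC in dm6 and is one of the bins set apart above. Without larval WT replicate 2 the larval test called 7 gene bins, and the embryo test against WT called 9 without embryo WT replicate 1 and 9 without gypsy2 replicate 5. The pupal test called 4 without pupal WT replicate 2 and 1 without pupal WT replicate 3 or any 1 gypsy2 library. Over all bins, 17 fell and 21 rose of 868 without larval WT replicate 2. Without embryo WT replicate 1 it was 45 and 64 of 896, and without embryo gypsy2 replicate 5, 73 and 76 of 889. Without pupal WT replicate 2 it was 19 and 34 of 881.

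Beside its neighbours, CG5888 fell more from PRE2 than the genes between it and the viewpoint. From PRE2 over stages, the Idgf cluster, the chitinase-like growth factor genes Idgf1, Idgf2 and Idgf3, fell by 0.25, and CG5888 fell by 0.39 more (exact p = 0.00025). The dac gene body rose by 0.33, and the difference from CG5888 was -0.98 (exact p = 0.00025). From the gypsy2 viewpoint, the Idgf cluster rose by 0.53 and dac fell by 0.28, and CG5888 differed from them by -0.56 (exact p = 0.00025) and 0.25 (exact p = 0.0015).

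Of 53 annotated protein-coding genes of 2L within 500 kb of PRE2 with at least 3 bins, those whose group means from PRE2 followed CG5888 most closely over the 8 groups were Hyls1 and chif, which share the same annotated span from 16342430 to 16352628 and hence the same values (Pearson's r = 0.82 across groups, Spearman's rho = 0.69). Idgf3 came next (r = 0.57), and the median over the 53 genes was -0.27. These correlations are a description over group means that share libraries.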

How the data were processed

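The authors deposited 4C-seq read counts per 1-kb bin of dm6 as 6 tables, 1 for each stage and viewpoint, with 48 columns of raw counts. The submitters' processing notes name Bowtie and dm6; their versions, and any filter, enzyme or 4C protocol, were not found in the labels or methods read here. The 30 values of 7 or more digits all end in 0 and appear rounded, and 0 of them lie in CG5888. The series has 62 samples, of which the 24 4C-seq libraries were used here.

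The share of a bin was its count as a percentage of the 2L counts more than 5 kb from the viewpoint bin. Groups were compared on log2 shares with exact two-sided permutation tests, whose smallest p is 0.1 for 3 against 3 libraries and 0.00025 when genotypes are exchanged within the 3 stages. The viewpoints were compared within WT libraries by exact sign flips. Bins within 500 kb with a mean count of at least 10 were tested with edgeR 4.0.16 (quasi-likelihood, TMM, R 4.3.3) and, as an alternative, DESeq2 1.42.0. The fits were tested on simulated data. Bins named singly were the PRE1 bins, the high bin, the 5 highest and 3 lowest gene bins of WT from PRE2, and in each fit the called gene bin with the largest rise and fall; the bins set apart as holding counts in only some libraries were chosen after their values were seen. The members and lists were chosen with earlier results of these data known.

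Replicate pairs differed by more than counting noise, with chi-square over its degrees of freedom from 9.88 to 940 over 48 pairs, so each library counted as 1 replicate. In the embryo comparison of gypsy1 and WT, same-numbered columns deviated together (r of 0.46, 0.44 and 0.34 in the PRE2 tables, and of 0.56, 0.59 and 0.22 with gypsy2 as the viewpoint), and the numbers were taken to pair the libraries. Gene models came from Ensembl release 115 and sequences from its dm6 assembly. Counting errors cover counting only, and reads of a PCR product are not independent molecules.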

Additional observations from a re-analysis of the deposited data

Results flagged for a closer look

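Results were looked at again where the difference of gypsy2 from WT itself differed between stages at an unadjusted p under 0.05, by exact relabelling of genotypes within both stages (400 relabelings, which assume no effect in either stage). None of these 4 passed Benjamini-Hochberg adjustment over 60 such tests. From the gypsy2 viewpoint, the log2 difference of the CG5888 share was higher in larval discs than in embryos by 0.38 (p = 0.01, adjusted p = 0.075, exact) and higher in pupal discs than in embryos by 0.34 (p = 0.01, adjusted p = 0.075, exact). From PRE2, the log2 difference of the PRE1 part in pupal discs was -0.21 relative to embryos (p = 0.03, adjusted p = 0.15, exact) and -0.27 relative to larval discs (p = 0.015, adjusted p = 0.09, exact). Groups held 3 libraries, too few for a test of single outlying libraries.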

How the results depend on the processing

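Of 192 alternatives that kept all libraries, 133 left the direction, the side of the threshold and the size as they were, and so did 257 of 273 that left out 1 library. The fall of CG5888 and of its ratio to the mirror bins from PRE2 over stages kept its direction and exact p of 0.00025 without any 1 library. From the gypsy2 viewpoint the share over stages was -0.47 (exact p = 0.0473) with all 2L counts as the denominator, and the ratio to the mirror bins 0.079 (exact p = 0.308) with titled-WT in place of embryo WT. The PRE1 part over stages was 0.20 (exact p = 0.0005) from PRE2 with bins capped at the 99th percentile. With the 2 middle bins as PRE1, nearly the bin from 16422001 alone, it was -0.42 from PRE2 and -0.31 from the gypsy2 viewpoint. The cause was not tested.

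The log2 share by comparison changed in size. From PRE2, with all 2L counts as the denominator it was -1.87 in embryos, -1.08 in larval discs, -0.53 in pupal discs, -0.73 against titled-WT and -0.56 for gypsy1; with counts more than 200 kb away it was -0.78, -0.93, -0.51, -0.54 and -0.60 in that order. Capping gave -0.58 in embryos, -0.30 in pupal discs, -0.42 against titled-WT and -0.42 for gypsy1, the whole gene -0.63 in embryos and -0.41 in pupal discs, and leaving out the 4 bins that divide the libraries, an alternative added after seeing the data, -0.50 for gypsy1. With the gypsy2 viewpoint, all 2L counts gave -1.37 in embryos, -0.064 in larval discs, 0.0098 in pupal discs and -0.17 against titled-WT; counts over 200 kb away gave 0.17 in pupal discs and -0.46 for gypsy1; the whole gene gave -0.15 in embryos, 0.17 in pupal discs and -0.17 against titled-WT.

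Between WT stages from PRE2, all 2L counts gave 0.36 for larval discs against embryos, -0.57 for pupal against larval discs and -0.20, the opposite sign, for pupal discs against embryos; counts over 200 kb away gave 0.36 and -0.31 for the former pair, and capping 0.018 for the latter. Counted from gypsy2, the values were 0.049, -0.33 and -0.28 with all 2L counts and 0.31, -0.46 and -0.15 with counts over 200 kb away.

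Counts of called gene bins from PRE2 changed to 25 in larval discs and 28 against titled-WT with DESeq2, and to 7 in larval discs with all 2L bins in the fit. Over all bins these fits called 71 lower and 17 higher of 850, 92 and 54 of 915, and 19 and 0 of 14174. With 6-kb windows, of which there are fewer, 7 gene windows were called in embryos, 7 in larval discs, 5 in pupal discs, 7 against titled-WT and 7 for gypsy1. Over all 162 windows the calls were 28 lower and 24 higher, 20 and 8, 15 and 14, 24 and 12, and 11 and 4. With the gypsy2 viewpoint the called gene bins were 7 in larval and 7 in pupal discs with DESeq2 and 7 in embryos with all 2L bins. Over all bins these fits called 30 lower and 21 higher of 869, 40 and 39 of 888, and 43 and 84 of 18264. With 6-kb windows 4 were called in embryos, 4 against titled-WT and 1 for gypsy1. Over all windows the calls were 28 lower and 32 higher of 163, 25 and 26 of 163, and 1 and 0 of 162. Leaving out 1 library gave 4 to 22 called bins in larval and 4 to 8 in pupal discs from PRE2, and 9 to 13 in embryos, 2 to 7 in larval and 1 to 4 in pupal discs from the gypsy2 viewpoint.

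With the replicate block, 35 gene bins were called for gypsy1 from PRE2 and 1 in pupal discs from the gypsy2 viewpoint, and no other count moved by over 1.5 times (11 in larval and 8 in pupal discs from PRE2). In the larval and pupal comparisons same-numbered libraries did not deviate together in every pair. In the titled-WT comparison they did so weakly from PRE2 (r of 0.16, 0.16 and 0.04) but not from the gypsy2 viewpoint (r of -0.64, -0.41 and 0.05). No block was fitted for embryo gypsy2 against WT, whose replicate numbers in the sample titles (4 to 6 and 1 to 3) do not overlap. Column numbers were used only for gypsy1, whose columns could not be tied to single titles. Depth differed most between the embryo groups, with totals from 800269 to 25904672.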
